A study of Homo sapiens with 12 samples.

Results

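The genes described are the 6 human genes CYP24A1, VDR, RXRA, CYP27A1, CYP2R1 and CYP27B1, which make, sense and break down the active form of vitamin D, out of 28256 gene symbols in the deposited table. Each gene was matched by its symbol, and of its transcripts the one with most counts in the 12 libraries together was used. The set was selected on measured values of the same data, the level of CYP24A1 in dexamethasone and in vehicle cells. Values of that comparison are therefore given as a description, without a test, and CYP24A1 was tested in DexKLA against KLA cells only.

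RNA was sequenced from HepG2, an established line derived from a human hepatoma and labelled wild type, in 12 libraries of 4 groups with 3 libraries each. All cells had first spent 24 h in growth medium whose serum was charcoal-stripped, a step that depletes steroid hormones. The groups were then exposed for 24 h to dexamethasone with KLA (DexKLA, 50 nM and 100 ng/µl), to dexamethasone alone (Dex, 50 nM), to KLA alone (100 ng/µl), or to the vehicle DMSO at 0.1%. Dexamethasone is a synthetic steroid hormone of the glucocorticoid kind. What KLA stands for is not stated, the name being also in use for a lipid A that activates the receptor TLR4, and DMSO is stated for the vehicle cells only. Separate cultures are not stated either, so a p-value here reflects the spread between 3 libraries a group, which can be technical.

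Vitamin D is made in skin or eaten, and becomes a hormone in steps. CYP2R1, in the endoplasmic reticulum, and CYP27A1, in mitochondria, add the hydroxyl group that gives the circulating form, mostly in the liver. CYP27B1, best known from the kidney, adds a further one and yields calcitriol, the active hormone. Calcitriol binds the vitamin D receptor, VDR, which pairs with the retinoid X receptor RXRA on DNA. CYP24A1 hydroxylates both the circulating form and calcitriol and starts their breakdown, and its gene is a well known target of the same receptor pair.

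Total counts ranged from 3317740 to 20933501 per library. They were 9289765, 4514606 and 11484497 in the DexKLA libraries, 3642685, 17782057 and 4613811 in the Dex libraries, 15998657, 20933501 and 18614368 in the KLA libraries, and 3317740, 5277463 and 4409643 in the DMSO libraries. The shallowest KLA library exceeded the deepest DMSO library. All 8 liver cell markers examined were expressed, between a group mean of 162 TMM-normalised CPM (counts scaled to a common library size) for TTR in KLA cells and 91128 CPM for ALB in DexKLA cells. Of 7 markers of blood, connective tissue and vessel cells, PTPRC, LST1, COL1A1, DCN and CDH5 were too low to be tested. CD68 averaged 46.8 to 52.6 CPM and PECAM1 2.67 to 3.47 CPM over the groups.

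Per kilobase of transcript, which allows genes to be compared, the 6 genes spanned a wide range. CYP27A1 averaged 107 CPM per kb over the 12 libraries, RXRA 11.7, CYP24A1 5.49, CYP2R1 0.628, CYP27B1 0.345 and VDR 0.140. CYP27A1 was above all the others in every library, from 100.0 to 120 CPM per kb. CYP24A1 was below RXRA in the means of all 4 groups, with 3.70 ± 0.497 against 11.3 ± 0.332 in DexKLA cells, 3.38 ± 0.0721 against 12.1 ± 1.11 in Dex cells and 2.80 ± 0.782 against 10.4 ± 0.790 in KLA cells (SD, n = 3 each). In DMSO cells CYP24A1 had 12.1 ± 5.63 CPM per kb and RXRA 12.9 ± 1.89 (SD, n = 3), and the ranges of the 2 genes overlapped there. VDR was the lowest in the mean, at 0.0359 to 0.349 CPM per kb.

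**Figure D1:**
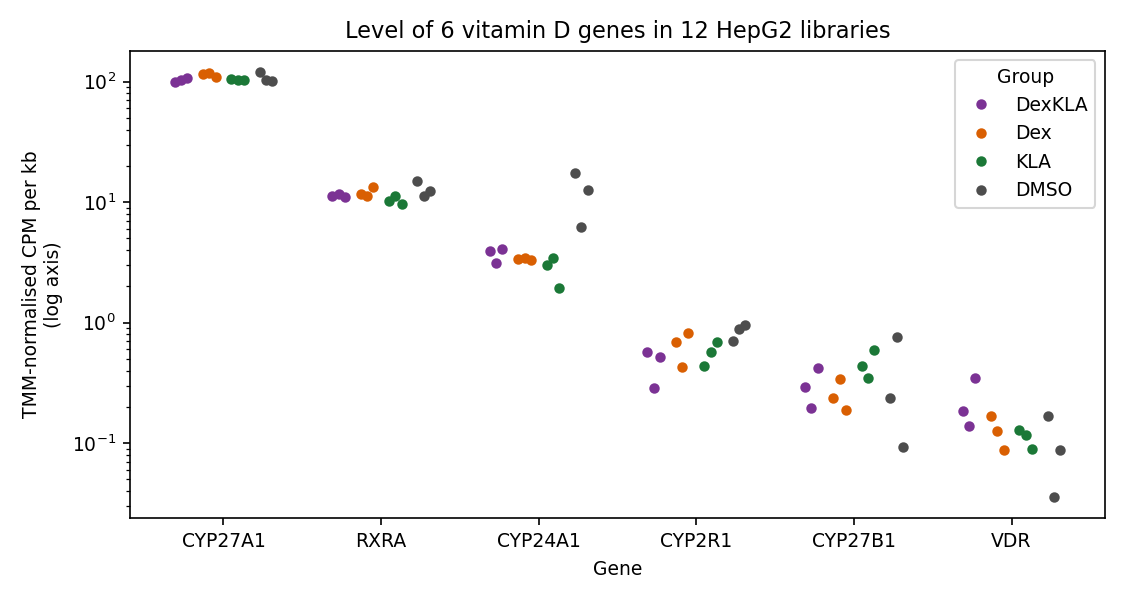
Level of each of the 6 genes in every library, as CPM per kilobase of transcript on a log axis, with groups shown by colour. CYP27A1 lies between 100.0 and 120 CPM per kb, VDR between 0.0359 and 0.349, and CYP24A1 is the gene whose DMSO libraries stand apart from its treated ones.

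The 250 bases before the start are shown for the 2 genes whose transcript start in the deposited table is also that of a RefSeq promoter window (GRCh38.p14), CYP27A1 (chr2:218781897-218782146, plus strand) and RXRA (chr9:134326205-134326454, plus strand), the tested genes other than CYP24A1. Capitals mark matches, on either strand, to 4 hexamers of the kind nuclear receptors bind: AGGTCA, its variant AGTTCA, the variant GGTTCA and the variant GGGTCA.
CYP27A1: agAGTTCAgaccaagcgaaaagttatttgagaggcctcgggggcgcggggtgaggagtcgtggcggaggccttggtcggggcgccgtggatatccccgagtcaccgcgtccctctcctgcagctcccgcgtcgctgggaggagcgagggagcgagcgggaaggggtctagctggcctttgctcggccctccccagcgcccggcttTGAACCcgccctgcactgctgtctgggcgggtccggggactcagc
RXRA: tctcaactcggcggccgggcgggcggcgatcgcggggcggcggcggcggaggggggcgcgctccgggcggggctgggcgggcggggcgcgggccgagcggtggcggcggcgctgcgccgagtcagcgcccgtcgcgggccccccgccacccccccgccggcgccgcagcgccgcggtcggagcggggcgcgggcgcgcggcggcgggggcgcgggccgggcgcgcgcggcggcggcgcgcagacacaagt
The CYP27A1 window holds AGTTCA, whose first base lies 248 bases before the start, and TGAACC, the reverse complement of GGTTCA, 45 bases before it. The RXRA window holds none of the 4 hexamers and is 89.2% G and C, against 68.8% for CYP27A1 and a median of 58% over 35116 RefSeq windows. At least 1 of the 4 hexamers is found in 33.8% of those windows, AGTTCA in 8.80% and GGTTCA in 7.16%, so the CYP27A1 matches are of a common kind. Neither window holds a direct repeat of 2 of the hexamers spaced by 3 bases, the arrangement preferred by VDR with RXR and found in 0.0655% of windows. Neither holds AGAACA, the hexamer of the glucocorticoid receptor, which is in 12.4% of windows.

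CYP24A1, the breakdown enzyme, was low in every treated library and high in the vehicle. Its transcript NM_000782 has 3264 bases and lies at chr20:54153446-54173986 on the minus strand of hg38. It had 12.8, 10.2 and 13.2 CPM in DexKLA libraries, 11.1, 11.2 and 10.8 CPM in Dex libraries and 9.87, 11.3 and 6.31 CPM in KLA libraries, against 57.2, 20.5 and 40.8 CPM in DMSO libraries. The 9 treated libraries all lay below the 3 DMSO libraries, while the 3 treated groups overlapped one another. The counts behind these levels were 40 to 233 per library.

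The group means of CYP24A1 were 12.1 ± 1.62 CPM in DexKLA cells, 11.03 ± 0.235 in Dex cells, 9.15 ± 2.55 in KLA cells and 39.5 ± 18.4 in DMSO cells (SD, n = 3 each). From high to low the order of groups was DMSO, DexKLA, Dex and KLA, and only the step below DMSO was free of overlap between neighbours. The DMSO libraries differed more among themselves than the treated libraries did. In bulk RNA, fewer cells that express a gene and less of its RNA per cell cannot be told apart.

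As a description, the fitted log2 fold change of CYP24A1 was -1.80 ± 0.27 (SE) for Dex against DMSO, -2.08 ± 0.25 for KLA against DMSO and -1.65 ± 0.26 for DexKLA against DMSO, with the same DMSO libraries in all 3 values. Adding KLA to Dex gave 0.15 ± 0.28. The interaction, by which the DexKLA level exceeded the sum of both single changes on the log2 scale, was 2.23 ± 0.37. Across all genes tested, 2.05% were called in Dex against DMSO, the comparison that led to the choice of the set. Without DMSO replicate 1, the highest library, the 3 changes were -1.45 for Dex, -1.72 for KLA and -1.30 for DexKLA; without DMSO replicate 2 they were -2.14, -2.41 and -1.98.

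Depth differed between the groups, and the levels of CYP24A1 are therefore also given by depth, as a description. The treated libraries with totals under the median of 7283614 had 10.2 CPM (DexKLA replicate 2), 11.1 CPM (Dex replicate 1) and 10.8 CPM (Dex replicate 3). Every KLA library had a total above that median and every DMSO library one below it. For KLA against DMSO, treatment and depth therefore cannot be told apart. In the shallower libraries alone (Dex replicates 1 and 3 and all DMSO libraries), the change of CYP24A1 for Dex against DMSO was -1.80 ± 0.25 (SE). With every library thinned to 3317740 counts it was -1.96 ± 0.36, and with the trend of counts on transcript length removed -1.79 ± 0.26. These values restate the comparison on which the set was chosen, and a part of depth or length in the change was not tested. The second CYP24A1 transcript in the table, NM_001128915 of 3067 bases, had a total of 1501 counts over the libraries, beside 1604 for the one described, and covers the same locus.

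Whether dexamethasone changes CYP24A1 in cells that also receive KLA is the comparison that the choice of the gene did not use. The log2 fold change for DexKLA against KLA was 0.43 ± 0.26 (SE; unadjusted p = 0.112, adjusted p = 0.566, edgeR quasi-likelihood test). DexKLA libraries had 10.2 to 13.2 CPM and KLA libraries 6.31 to 11.3 CPM, so the groups overlapped. Without KLA replicate 3, the lowest library, the value was 0.22, the lowest of the values with 1 library left out. The error in this fit was estimated over all 12 libraries, the widely spread DMSO libraries among them. In the 6 libraries of the comparison alone the value was 0.415 ± 0.208 (SE, adjusted p = 0.624, edgeR). The change was not called in either fit.

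**Figure D2:**
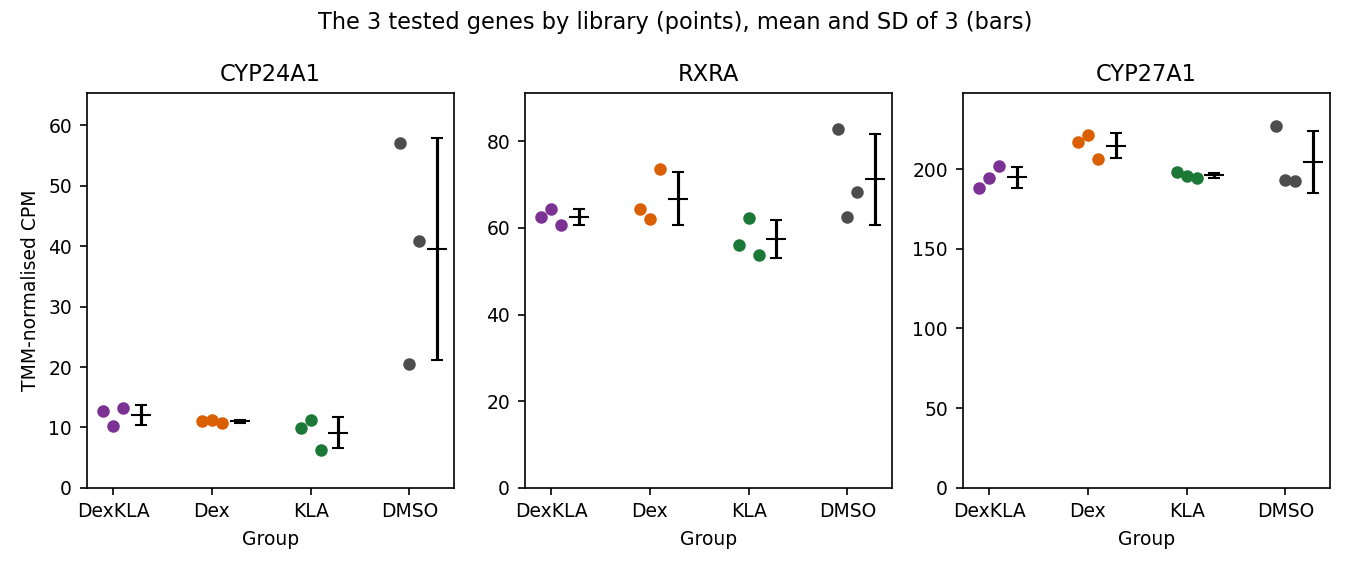
TMM-normalised CPM of CYP24A1, RXRA and CYP27A1 in each library (points) with the group mean and SD, groups from left to right DexKLA, Dex, KLA and DMSO. CYP24A1 lies at 6.31 to 13.2 CPM in the 9 treated libraries and at 20.5 to 57.2 CPM in DMSO libraries, while RXRA spans 53.8 to 82.8 CPM and CYP27A1 188 to 227 CPM over all libraries.

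RXRA, the partner that VDR needs on DNA and that many other nuclear receptors share, lay between 53.8 and 82.8 CPM in all 12 libraries. Its transcript NM_002957 has 5525 bases and lies at chr9:134326455-134440585 on the plus strand. RXRA had 62.6, 64.3 and 60.6 CPM in DexKLA libraries, 64.3, 62.2 and 73.7 CPM in Dex libraries and 56.0, 62.2 and 53.8 CPM in KLA libraries, against 82.8, 62.4 and 68.3 CPM in DMSO libraries. The KLA libraries lay just below the DMSO libraries, with 62.2 CPM in the highest KLA library and 62.4 CPM in the lowest DMSO library. From high to low the groups were DMSO (71.2 ± 10.5), Dex (66.7 ± 6.13), DexKLA (62.5 ± 1.83) and KLA (57.4 ± 4.36 CPM, SD, n = 3 each), with overlap between all neighbours in that order.

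RXRA was 0.30 ± 0.12 lower on the log2 scale in KLA than in DMSO cells, a fitted change of -0.30 (unadjusted p = 0.0152), which did not pass adjustment (adjusted p = 0.0773, edgeR). With library size alone in place of TMM scaling the change was -0.42 ± 0.12 and was called (adjusted p = 0.0246); without DMSO replicate 1 it was -0.19. The fitted change was 0.12 ± 0.11 for DexKLA against KLA (adjusted p = 0.721), -0.18 ± 0.12 for DexKLA against DMSO (adjusted p = 0.383) and -0.09 ± 0.12 for DexKLA against Dex (adjusted p = 0.873). The interaction was 0.21 ± 0.16 (adjusted p = 0.462; 0.038% of all genes were called), and Dex against DMSO, given as a description, was -0.09 ± 0.12. The microRNA gene MIR4669 lies inside RXRA on the same strand. Of the other 2 RXR genes, RXRB averaged 57.9 to 60.0 CPM over the groups and RXRG had 0 counts in all 12 libraries.

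CYP27A1, the mitochondrial 25-hydroxylase that also acts in bile acid synthesis, lay between 188 and 227 CPM in all 12 libraries. Its transcript NM_000784 has 1884 bases and lies at chr2:218782147-218815293 on the plus strand. CYP27A1 had 188, 194 and 202 CPM in DexKLA libraries, 217, 221 and 206 CPM in Dex libraries and 198, 196 and 194 CPM in KLA libraries, against 227, 193 and 193 CPM in DMSO libraries. The Dex libraries were above all DexKLA and KLA libraries, and the DMSO libraries spanned the whole range of the Dex group. The order of the means was Dex (215 ± 7.61), DMSO (204 ± 19.6), KLA (196 ± 1.81) and DexKLA (195 ± 6.70 CPM, SD, n = 3 each), and each neighbouring pair overlapped.

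The fitted log2 change of CYP27A1 was -0.01 ± 0.10 for DexKLA against KLA (adjusted p = 0.981), -0.06 ± 0.10 for KLA against DMSO (adjusted p = 0.726) and -0.07 ± 0.10 for DexKLA against DMSO (adjusted p = 0.732, edgeR). For DexKLA against Dex, where the groups did not overlap, it was -0.14 ± 0.10 (adjusted p = 0.766). The interaction was -0.08 ± 0.14 (adjusted p = 0.755), and Dex against DMSO, as a description, was 0.07 ± 0.10. Of the genes whose levels passed the filter, CYP24A1, RXRA and CYP27A1, none was called in DexKLA against KLA, where 0.653% of all tested genes were called. RXRA and CYP27A1 were not called in KLA against DMSO (13.7% of all genes), in DexKLA against DMSO (4.22%) or in DexKLA against Dex (0%). In DexKLA against Dex, 935 genes had an unadjusted p under 0.05, and edgeR and DESeq2 each called 0.

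**Figure D3:**
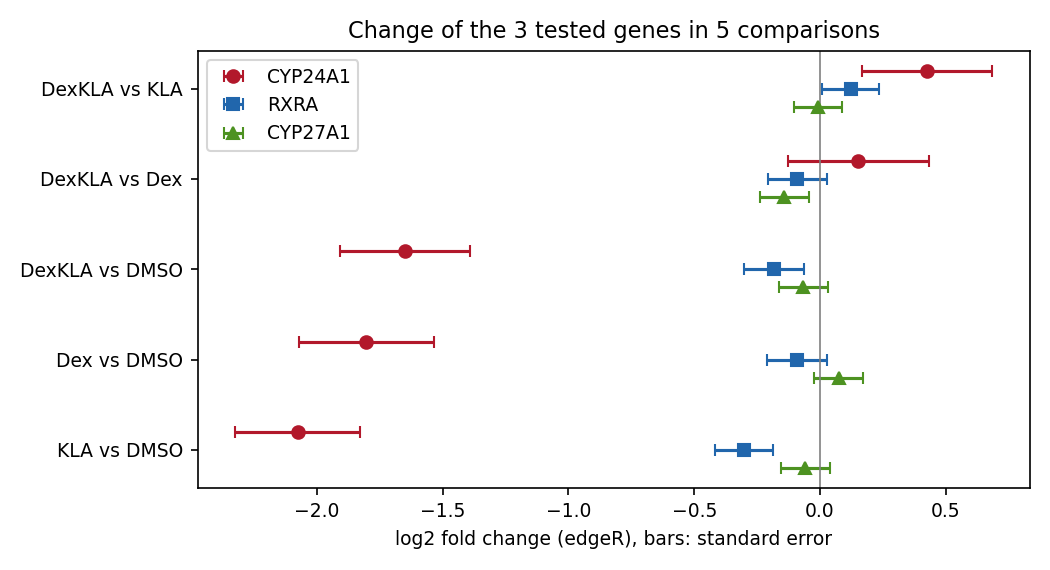
Fitted log2 fold change with standard error for the 3 genes that passed the filter, by comparison. RXRA lies at -0.30 to 0.12 and CYP27A1 at -0.14 to 0.07, and CYP24A1 lies at -2.08 to -1.65 in the comparisons with DMSO and at 0.43 for DexKLA against KLA.

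The receptor VDR and the activating enzymes CYP2R1 and CYP27B1 were near the limit of detection and did not pass the filter on low counts. VDR (NM_001017536, 4995 bases, chr12:47841537-47904994, minus strand) had 8, 3 and 21 counts in DexKLA libraries, 3, 11 and 2 in Dex libraries, 10, 12 and 8 in KLA libraries and 3, 1 and 2 in DMSO libraries. Over pooled counts and library totals this was 1.27 CPM in DexKLA cells (95% exact Poisson interval 0.866 to 1.79), 0.614 CPM in Dex cells (0.351 to 0.998), 0.540 CPM in KLA cells (0.364 to 0.771) and 0.461 CPM in DMSO cells (0.169 to 1.00). These intervals cover counting error only.

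After TMM scaling VDR was 0.914, 0.696 and 1.74 CPM in DexKLA libraries, all above the KLA libraries at 0.641, 0.580 and 0.447 CPM. Dex libraries had 0.832, 0.631 and 0.440 CPM and DMSO libraries 0.845, 0.179 and 0.437 CPM, so both groups overlapped the DexKLA libraries. DexKLA replicate 3 alone held 21 of the 32 DexKLA counts. In a fit with no filter on low counts (19916 genes) the VDR change was 1.13 ± 0.46 (SE) for DexKLA against KLA (unadjusted p = 0.0136, adjusted p = 0.331, edgeR) and 1.47 ± 0.67 for DexKLA against DMSO (adjusted p = 0.223). The 4 VDR transcripts in the table differ by at most 0.5 counts in any library, and an antisense gene, AC121338.1, overlaps VDR on the other strand. No source used here gives the library strand, so reads of the pair cannot be told apart.

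CYP2R1 (NM_024514, 1612 bases, chr11:14878010-14892205, minus strand), the microsomal 25-hydroxylase, had 2 to 20 counts per library. Its pooled level was 0.791 CPM in DexKLA cells (95% exact Poisson interval 0.483 to 1.22), 0.845 CPM in Dex cells (0.529 to 1.28), 0.90 CPM in KLA cells (0.668 to 1.19) and 1.46 CPM in DMSO cells (0.880 to 2.28). CYP27B1 (NM_000785, 2361 bases, chr12:57762334-57767078, minus strand), the enzyme that makes calcitriol, had 1 to 25 counts per library. Its pooled level was 0.791 CPM in DexKLA cells (0.483 to 1.22), 0.691 CPM in Dex cells (0.410 to 1.09), 1.04 CPM in KLA cells (0.793 to 1.35) and 1.00 CPM in DMSO cells (0.532 to 1.71). The intervals of all 4 groups overlapped for each enzyme, and in the fit with no filter the adjusted p-values of CYP2R1 and CYP27B1 ranged from 0.519 to 1 over the comparisons other than Dex against DMSO. A difference between groups was not detectable at this depth.

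6 genes were named for having the pattern across libraries most like that of CYP24A1, by Pearson's r of log2 CPM over the 12 libraries. They were ZFP36L2, a zinc finger protein that binds RNA and promotes its decay (r = 0.967), ANKH, a membrane protein of pyrophosphate export (0.962), CASKIN2, a scaffold protein (0.957), KLB, the co-receptor beta-klotho of endocrine fibroblast growth factors (0.955), NCOA1, a coactivator of nuclear receptors (0.946), and PRKAR1A, a regulatory subunit of protein kinase A (0.946). Of 13165 genes compared with CYP24A1, 48 had r over 0.9, and the median r was 0.026. The libraries share the 4 groups, and without the DMSO libraries r was 0.835, 0.758, 0.714, 0.572, 0.896 and 0.690 for the same genes in that order. Between deviations from the group means it was 0.829, 0.907, 0.874, 0.854, 0.716 and 0.676. By rank correlation NCOA1 was the nearest of the 6 to CYP24A1, with rho 0.916 and rank 13 among the genes compared. The rest had rho 0.741 to 0.811, at ranks 214.5 to 546. By deviations from the group means the 6 genes ranked from 11 to 508, so the choice of nearest genes depends on the measure.

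All 6 of these genes were highest in DMSO cells, with smaller differences than CYP24A1. Being highest there follows largely from their choice by likeness to CYP24A1 over the same libraries, and is a description. KLB averaged 119 ± 12.5 CPM in DexKLA cells, 118 ± 10.3 in Dex cells, 120 ± 13.7 in KLA cells and 194 ± 27.5 in DMSO cells (SD, n = 3 each). PRKAR1A averaged 236 ± 16.7, 228 ± 22.7 and 201 ± 9.66 CPM in DexKLA, Dex and KLA cells, and 343 ± 33.1 CPM in DMSO cells. ZFP36L2 averaged 80.9 ± 3.14, 77.0 ± 0.652 and 74.4 ± 7.97 CPM in DexKLA, Dex and KLA cells, and 105 ± 11.3 CPM in DMSO cells. Their transcripts had 3689 to 8193 bases, all longer than the median of 3130 bases over tested genes, and CYP24A1 had 3264. Length moved with the comparison, since the rank correlation across genes between length and the KLA-to-DMSO change was -0.467. Libraries of the same group also differed in such a trend. The rank correlation of length with a library's deviation from the gene means was -0.134, 0.0917 and 0.385 in DexKLA libraries and 0.137, -0.534 and -0.148 in Dex libraries. It was -0.175, -0.152 and -0.526 in KLA libraries and 0.192, 0.329 and 0.395 in DMSO libraries. The part of length in the likeness was not tested. Over the same libraries CYP24A1 had r 0.740 with RXRA (rho 0.469) and 0.280 with CYP27A1 (rho -0.042).

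**Figure D4:**
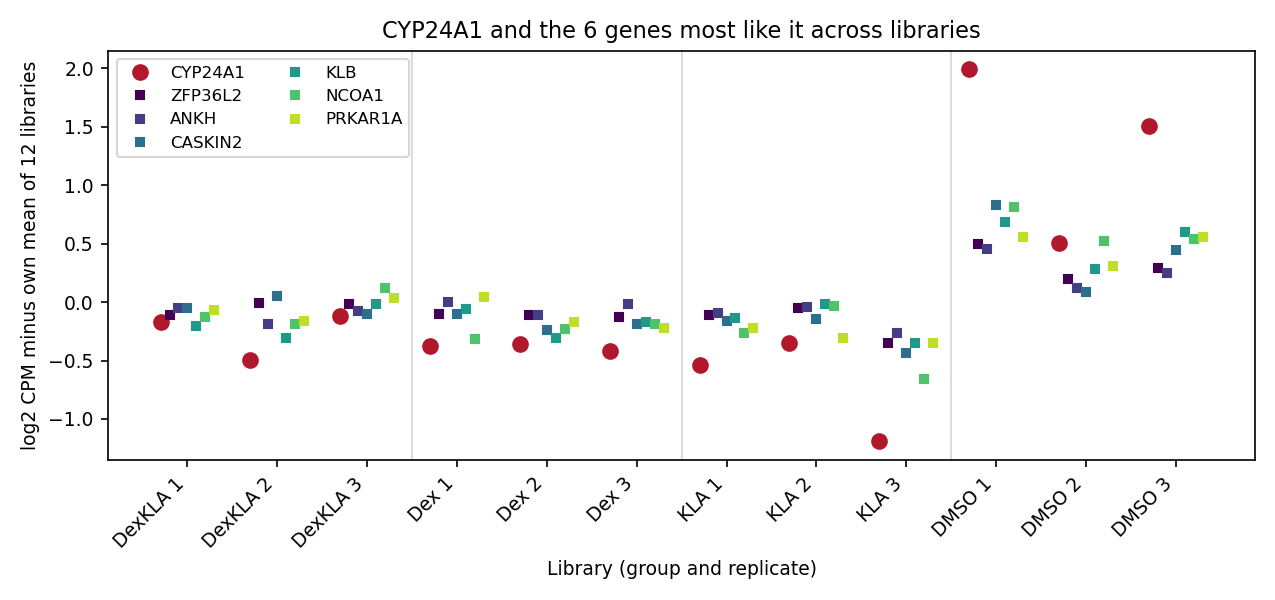
log2 CPM of CYP24A1 and of the 6 genes with the highest Pearson r to it (0.946 to 0.967), each minus its own mean over the 12 libraries, by library. All 7 genes are at their highest in DMSO libraries, which the choice by r makes likely, and CYP24A1 moves the most.

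The wider vitamin D machinery was described by 5 gene lists. In the list of transport, synthesis and conjugation, 7 of 10 genes were tested. Of these, 0 were called in each of DexKLA against KLA, KLA against DMSO, DexKLA against DMSO and DexKLA against Dex. The shares of all tested genes called were 0.653%, 13.7%, 4.22% and 0% in that order, so 0 calls among so few genes says little. GC, the vitamin D binding protein of serum, was too low to be tested, with 0 to 4 counts in each library. DHCR7, which turns the precursor of vitamin D3 into cholesterol instead, averaged 549 ± 26.5 CPM in DexKLA cells, 577 ± 32.0 in Dex cells, 543 ± 25.3 in KLA cells and 590 ± 61.8 in DMSO cells (SD, n = 3 each). SULT2A1, which puts sulfate on steroids, averaged 341 ± 102 CPM in DexKLA cells, 336 ± 26.8 in Dex cells, 366 ± 49.6 in KLA cells and 347 ± 43.5 in DMSO cells. Of the 5 proteins that pass electrons to P450 enzymes, all tested, 0 were called in the same 4 comparisons, beside the same shares of all genes. Among them CYB5A averaged 188 ± 17.7 CPM in DexKLA cells and 146 ± 8.35 CPM in DMSO cells (log2 change 0.36 ± 0.11, adjusted p = 0.0630, edgeR), and POR, the reductase of microsomal P450 enzymes, averaged 360 ± 48.8 CPM and 391 ± 56.0 CPM.

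Of the RXR isoforms and coregulators of the receptor, 13 of 14 genes were tested, and 8 were lower and 0 higher in KLA than in DMSO cells. The median log2 change was -0.50, beside -0.02 for all tested genes, of which 5.94% were called lower and 7.78% higher. NCOA1 had 7.33 ± 1.56 CPM in KLA cells and 13.9 ± 1.60 CPM in DMSO cells (log2 change -0.91 ± 0.18, adjusted p = 0.00923, edgeR). MED1, the Mediator subunit that contacts nuclear receptors, fell by 0.65 ± 0.14 on the log2 scale (adjusted p = 0.0109), and SMARCA4, the motor of a chromatin remodelling complex, by 0.50 ± 0.12 (adjusted p = 0.0156). The list's transcripts are long, with a median of 7934 bases against 3130, and with the length trend removed 3 were called lower, SMARCA4 not among them (adjusted p = 0.0752), and the median was -0.30. Without DMSO replicate 1, 0 of the 13 were called (median -0.45), and with depth class as a covariate 0 were called. Few of all tested genes were called in those fits either, 5 and 4, against 1806 in the fit reported. With thinning the calls of NCOA1 (adjusted p = 0.22) and SMARCA4 (0.158) were lost.

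For DexKLA against KLA 0 of these 13 genes were called, beside 0.653% of all tested genes (median 0.26, beside 0.00 for all genes). Length moved with this comparison too, with a rank correlation of 0.494 across genes between length and change, and the list's transcripts are long. As given above, the libraries within each of these groups differed in their length trend. For DexKLA against DMSO, where 1.38% of all genes were called lower and 2.84% higher, SMARCA4 was the 1 gene of the 13 that was called, lower by a log2 change of -0.45 ± 0.13 (adjusted p = 0.0446), and the call was a fragile one. It was lost in 8 of the 12 fits that each left out 1 library, with the largest adjusted p without DMSO replicate 1 (0.302), and with the replicate block (0.0646), summed transcripts (0.0628), thinning (0.214) and depth class as a covariate (0.107). For DexKLA against Dex 0 were called, beside 0% of all tested genes.

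Among the nuclear receptors that pair with RXR, 12 of 13 were tested, and 1 was higher and 3 lower in KLA than in DMSO cells, beside 7.78% higher and 5.94% lower of all tested genes. PPARG, the receptor best known from fat cells, had 112, 68.8 and 80.8 CPM in KLA libraries, against 37.2, 57.4 and 60.5 CPM in DMSO libraries (log2 change 0.74 ± 0.19, adjusted p = 0.0168, edgeR). PPARA, which drives fatty acid oxidation in liver, fell by 0.65 ± 0.17 (adjusted p = 0.0192), and PPARD fell by 0.46 ± 0.15 (adjusted p = 0.0411). NR1H4, the bile acid receptor, had 35.9, 28.8 and 21.8 CPM in DexKLA libraries, against 47.3, 41.6 and 47.1 CPM in DMSO libraries (-0.66 ± 0.15, adjusted p = 0.0199). Its levels were 28.3, 28.7 and 28.6 CPM in Dex libraries and 37.3, 40.5 and 33.4 CPM in KLA libraries. Without DMSO replicate 1 none of these 4 receptors passed, with adjusted p-values of 0.111, 0.105, 0.240 and 0.128. Of all tested genes, 5 were then called in KLA against DMSO and 48 in DexKLA against DMSO. The PPARG call was also lost without KLA replicate 1 (0.0566), and the PPARA call without DMSO replicate 3 (0.0561) or KLA replicate 3 (0.0666). The NR1H4 call was lost without DMSO replicate 3 (0.0602) or DexKLA replicate 2 (0.0707). With thinning the PPARG (0.0621), PPARA (0.134) and NR1H4 (0.209) calls were lost. With depth class as a covariate they were lost as well (0.148, 0.452 and 0.0857). That setting called 4 of all tested genes in KLA against DMSO and 173 in DexKLA against DMSO. The PPARA call was also lost with the length trend removed (0.0513). The PPARD call was lost in 6 of the 12 fits that each left out 1 library (DMSO replicates 1 and 3, Dex replicates 1 and 3, KLA replicates 1 and 3), and with the replicate block (0.0611), the 6 libraries alone (0.0621), thinning (0.309), the length trend removed (0.0724) and depth class as a covariate (0.706). For DexKLA against KLA and for DexKLA against Dex 0 of the 12 were called, beside 0.653% and 0% of all tested genes.

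Of 30 known target genes of VDR, 18 were tested, and 2 were higher and 1 lower in KLA than in DMSO cells, a share near the 13.7% of all tested genes called in either direction. The median change was -0.03. SPP1, which encodes osteopontin, had 543, 457 and 395 CPM in DexKLA libraries and 417, 402 and 468 CPM in Dex libraries, against 647, 658 and 790 CPM in KLA libraries and 468, 498 and 481 CPM in DMSO libraries. The KLA libraries were above all others. SPP1 rose by 0.53 ± 0.12 in KLA against DMSO cells (adjusted p = 0.0109) and fell by 0.59 ± 0.12 in DexKLA against KLA cells (adjusted p = 0.0147, edgeR), the only call among the 5 lists in that comparison, where 0.213% of all genes were called lower. The second call did not hold without KLA replicate 3 (adjusted p = 0.0508), DexKLA replicate 2 (0.0945) or DexKLA replicate 3 (0.0769). Nor did it hold in the 6 libraries alone (0.145) or the deeper libraries alone (0.626). In these fits the log2 change was -0.48 to -0.59, beside -0.59 in the fit reported. The 6 libraries alone called 38 of all tested genes and the deeper libraries alone 15, against 86 in the fit reported. The first call did not hold without DMSO replicate 1 (0.0732) or with depth class as a covariate (0.163). The log2 change was 0.51 and 0.58 in those fits, which called 5 and 4 of all tested genes.

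CCNC, the cyclin of the Mediator kinase module, rose by 0.47 ± 0.12 in KLA cells (adjusted p = 0.0195) and by 0.51 ± 0.13 in DexKLA cells (adjusted p = 0.0278), both against DMSO. CD14, a co-receptor of lipopolysaccharide signalling, had 2.74, 1.39 and 1.33 CPM in DexKLA libraries, 3.33, 2.87 and 3.08 CPM in Dex libraries and 3.08, 3.58 and 1.79 CPM in KLA libraries, against 10.7, 3.95 and 4.58 CPM in DMSO libraries. It was called lower in KLA against DMSO (-1.10 ± 0.33, adjusted p = 0.0332) and in DexKLA against DMSO (-1.72 ± 0.39, adjusted p = 0.0203). Its level in DMSO replicate 1 stands far above the other DMSO libraries. Without that library the changes were -0.59 (adjusted p = 0.323) and -1.20 (adjusted p = 0.207). Of all tested genes, 5 and 48 were then called in KLA and in DexKLA against DMSO. The KLA call of CD14 was also lost without KLA replicate 3 (0.0971) and the DexKLA call without DexKLA replicate 2 (0.0716). With thinning both CD14 calls were lost (0.345 and 0.302), and with depth class as a covariate as well (0.307 and 0.0924). In the 6 libraries alone the KLA call of CD14 was lost (0.0549). CCNC lost both calls without DMSO replicate 1 (adjusted p = 0.114 and 0.201) or DMSO replicate 2 (0.0511 and 0.0697). Its KLA call was also lost without KLA replicate 3 (0.0834), and its DexKLA call without DexKLA replicate 1 (0.134) or DexKLA replicate 2 (0.0914). With depth class as a covariate both CCNC calls were lost (0.272 and 0.123). That setting called 4 and 173 of all tested genes in KLA and in DexKLA against DMSO. The DexKLA call of CCNC was lost with thinning (0.0686) and with library size alone (0.0586) too.

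**Figure D5:**
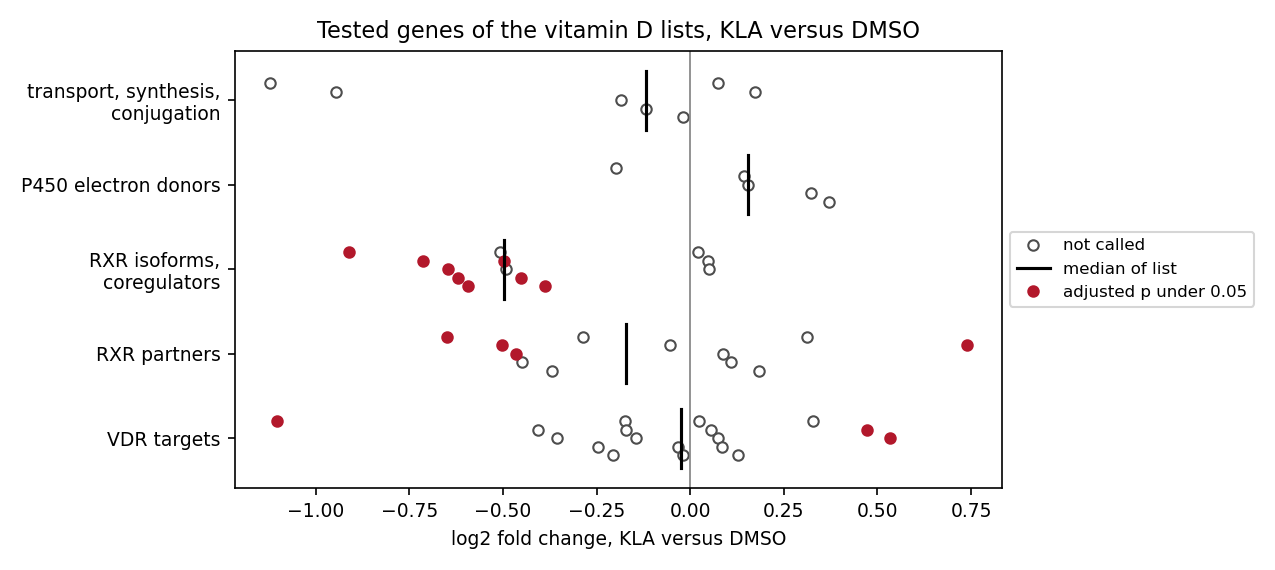
log2 fold change of KLA against DMSO for the tested genes of the 5 lists (points, filled where the adjusted p was under 0.05) with the list median as a bar. The coregulators have the lowest list median, -0.50, and the median of the VDR targets is -0.03. The lowest single genes are in other lists, UGT1A4 at -1.12 and CD14 at -1.10.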

How the data were processed

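The authors deposited expected counts for 70507 RefSeq transcripts (hg38) in steps of 0.5. Per the submitters' processing notes, the tools were Trimmomatic, BWA 0.7.17 and HOMER 4.10; their roles, and the origin of the 0.5 steps, are not given in the sources used here. A fragment shared by near-identical transcripts may be counted in several rows, so 1 row was kept per gene symbol, the one with the highest total. Rows with no symbol (406, 1.71% to 2.55% of a library's total) were left out, and counts were rounded to whole numbers.

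The test was that of edgeR 4.0.16 under R 4.3.3 (filterByExpr, minimum count 10; TMM scaling; quasi-likelihood fit of 1 mean per group over 12 libraries, 8 residual degrees of freedom), with limma 3.58.1 installed as its dependency. Benjamini-Hochberg adjustment ran over 13166 genes, and calls needed an adjusted p under 0.05. DESeq2 1.42.0 was an alternative. Levels are TMM-normalised CPM, and pooled levels of low genes use library totals. Likeness used log2 CPM with a prior count of 2. All p-values compare libraries.

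The alternatives were other size factors, library size alone, DESeq2, a stricter filter (50 reads in 3 libraries) or no filter, the replicate number as a block, the longest or the summed transcripts, the 6 libraries of a comparison alone, thinning to 3317740 counts, removal of the length trend, and leaving out each library. Depth class as a covariate, and the deeper or the shallower libraries alone, were added after seeing the data. No 2 libraries of the same group agreed within sampling noise (chi-square per degree of freedom at least 1.87). The fit was tested on simulated data.

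The 6 genes, the 5 lists and the tests were chosen with earlier results of these data known. The rule named all 6 genes, the 6 genes most like CYP24A1, GC and DHCR7, and from each list up to 4 members with the smallest adjusted p among those called in the comparisons other than Dex against DMSO. Where fewer than 2 were called, it named the 2 members with the highest level. 1 gene that the rule names is not reported here.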

Additional observations from a re-analysis of the deposited data

How the results depend on the processing

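For CYP24A1, DexKLA against KLA gave 0.40 to 0.63 (log2) in 13 other settings and 0.22 to 0.61 with 1 library left out, and was not called in any of these 25. The calls of members leave out CYP24A1 in every other comparison, where its values are a description. Counted this way, members called numbered 0 to 0 with 1 library left out, and the 1 call in the other settings was RXRA in KLA against DMSO, with library size alone.

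The number of all tested genes called moved more. With 1 library left out it was 52 to 94 for DexKLA against KLA (86 with all), 5 to 2363 for KLA against DMSO (1806), 48 to 1461 for DexKLA against DMSO (556), 56 to 915 for Dex against DMSO (270) and 0 to 0 for DexKLA against Dex (0). The lowest counts for KLA and for DexKLA against DMSO came without DMSO replicate 1. With no filter 204, 987, 909 and 12 genes were called in DexKLA against KLA, DexKLA against DMSO, Dex against DMSO and DexKLA against Dex. With thinning the numbers were 33, 613, 73 and 50 for DexKLA against KLA, KLA against DMSO, DexKLA against DMSO and Dex against DMSO. Summed transcripts gave 52 for DexKLA against KLA and 307 for DexKLA against DMSO. The 6 libraries alone gave 38 for DexKLA against KLA and 1348 for Dex against DMSO. DESeq2 gave 920 for DexKLA against DMSO and 650 for Dex against DMSO. Removing the length trend gave 1064 for KLA against DMSO. With depth class as a covariate, added after seeing the data, 4, 173 and 129 genes were called in KLA, DexKLA and Dex against DMSO. The deeper libraries alone gave 15 for DexKLA against KLA, and the shallower alone 496 for Dex against DMSO. The cause was not tested for any of these.

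Libraries with the same replicate number did not deviate together (r of deviations from group means -0.31 to 0.172), so the numbers were not taken to pair them. With the replicate block 325 genes were called in DexKLA against DMSO and 134 in Dex against DMSO. VDR, CYP2R1 and CYP27B1 had at most 25 counts in any library, which limits the precision of their levels. No log2 fold change that was called, in the fit reported or in the alternative, changed sign. Of all 2604 alternative values 79 changed sign, each uncalled; they include CYP24A1 for DexKLA against Dex with thinning (-0.14) and, without DMSO replicate 1, CYP27A1 for KLA against DMSO (0.02) and for DexKLA against DMSO (0.01). CYP27A1 for DexKLA against KLA also took both signs, up to 0.07 with the length trend removed.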
